A study of Mus musculus with 8 samples.

Results

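The genes described here are 10 genes for translation factors and closely related proteins, listed together as genes with TOP promoters. They are Eef1a1, Eef1b2, Eef1d, Eef1g, Eef2, Eif4a1, Eif4a2, Eif3e, Pabpc1 and Tpt1, of 21938 nuclear protein-coding genes in GENCODE M21. They were chosen by name, and each gene was given the same-strand CAGE clusters whose strongest start base lay between 500 bp before the gene start and the gene end. The genes held 109 of 32857 clusters in E14, 110 of 33005 in A1 and 109 of 32870 in C7. The clusters come from nuclear RNA of mouse embryonic stem cells (mESCs): E14 wild-type cells (3 libraries) and 2 Pwwp2a/b double knockout (DKO) lines, clones A1 (2 libraries) and C7 (3 libraries), each of which is a single clone. All lines were grown on gelatine with serum and LIF. PWWP2A and its paralog PWWP2B are readers of the histone mark H3K36me3 that associate with histone deacetylases. The study asked whether transcription starts more often inside genes when both are missing. It reported higher levels of initiation at exonic and intronic sites that wild-type cells already used, a change that positions alone cannot show.

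CAGE-seq captures the cap of an RNA and sequences the base next to it, so that it maps transcription start sites (TSSs). A cluster is a run of nearby start bases on 1 strand, its dominant TSS is the base with the strongest signal, and its interquantile region runs from the 0.1 to the 0.9 quantile of that signal. The libraries of each line were merged before the clusters were called, and the values used here are positions only, with neither a signal nor a read count per cluster, so the depth behind each cluster is unknown. There is therefore 1 set of clusters per line and no replicate error. Differences between lines are described without a test, and A1 also differs from E14 and C7 in the number of libraries merged. The cluster bounds were nearly common to the lines: 97.3% of all E14 clusters had the same start and end in both clones.

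TOP stands for terminal oligopyrimidine. A TOP mRNA starts at a C that is followed at once by a run of pyrimidines (C or T in the DNA), and this stretch next to the cap lets the mTORC1 pathway, through the protein LARP1, switch translation of these mRNAs on and off together with growth. The best-known TOP mRNAs encode ribosomal proteins and translation factors, both of which rapidly dividing stem cells make in large amounts. Most mammalian promoters instead start at a purine that follows a pyrimidine. The exact start base is thus part of what defines a TOP gene.

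The promoter cluster of a gene was taken as the one whose dominant TSS lay closest to the start of its principal transcript, within 500 bp. All 10 genes had one in each line, and the dominant TSS was the same base in E14, A1 and C7 in all 10. The start sequences are shown because the pyrimidine stretch is visible at the start base itself. Each runs 5′ to 3′ from 10 bases before the dominant TSS to 19 bases after it, as far as the sources covered it, with the pyrimidines that run on from the TSS in capitals, on mm10 (GRCm38.p6, from RefSeq promoter windows and GENCODE M21 transcripts).
Eef1a1, chr9:78481652-78481681, minus strand: cttggacgttCTTTTTCgcaacgggtttgc
Eef1d, chr15:75909287-75909316, minus strand: ggcgccctccCTCTCCTTTgcagtcctgag
Eef2, chr10:81176636-81176665, plus strand: cgtcagcggtCTCTTCCgccgcagccgccg
Eif4a2, chr16:23107748-23107777, plus strand: gtccgcctgtCTTTTCagtcgggcgctgag
Eif3e, chr15:43282689-43282718, minus strand: aacaagcgctCCTTTCCCCCggcaagatgg
Pabpc1, chr15:36608953-36608973, minus strand: cCCCTTCTCCCCggcggttag
Tpt1, chr14:75845321-75845350, plus strand: ccgcgtcggcCTTTTCCgcccgctcccccc
Eif4a1, chr11:69672298-69672327, minus strand: gcactccgccCTagattctaaggatcatgt
Eef1b2, promoter cluster, chr1:63176852-63176881, plus strand: gcgtccgagcgctttcgttcaactccggct
Eef1b2, the next cluster downstream, chr1:63177119-63177148, plus strand: cgctctgggtCCTTTTTTTCCCTCagcgct

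A C followed by at least 4 pyrimidines stood at the dominant TSS of the promoter cluster in 7 of the 9 genes whose start bases were covered. Over all nuclear coding genes with a covered promoter cluster in E14 the share was 3.66%, which is 371 of 10128 genes. The cytosolic ribosomal protein genes, the largest group of TOP genes, reached 84.0% (63 of 75 covered), and 39 other translation factors 25.6% (10 genes). The pyrimidine runs of the 7 genes were between 6 and 11 bases long, longest in Pabpc1, the cytoplasmic poly(A)-binding protein, and shortest in Eif4a2, an RNA helicase of the cap-binding complex. The start base was C in 8 of the 9 genes (88.9%), against 8.02% of all coding genes, where 91.0% started at a purine.

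Of the genes without such a start, Eif4a1 and Eef1b2 differed from each other. Eif4a1, the close relative of Eif4a2, started at a C, but its pyrimidine run was only 2 bases long. Eef1b2, a nucleotide exchange subunit of the elongation factor eEF1B, started at a G in its promoter cluster, 1 base before a C with 4 pyrimidines, and had the longest pyrimidine run of all, 14 bases, at the next cluster downstream. The promoter cluster lay 37 bp after the start of the principal transcript and the TOP cluster 304 bp after it, on the first base of another annotated transcript. Counting every cluster within 500 bp of a principal start, 8 of the 10 genes had a TOP start, against 5.4% of coding genes. The start bases of the Eef1g promoter cluster were not covered, and the name TOP was therefore not checked there. At another of its clusters, 117 bp into the gene, the start base was G.

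The promoters were narrow. Their median interquantile width was 4 bp in each line, compared with 29 bp over all coding genes in E14 and 30 bp in each clone. In E14 the region was 10 bp wide or less in 7 of the 10 genes, against 21.2% of all coding genes. Ribosomal protein genes had a median of 7 bp (63.0% at 10 bp or less), and the other translation factors one of 32 bp (17.9%). The width depended on the cluster taken: with the widest interquantile region near a start, the median of the 10 genes in E14 was 28.5 bp and that of all coding genes 32 bp.

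**Figure D1:**
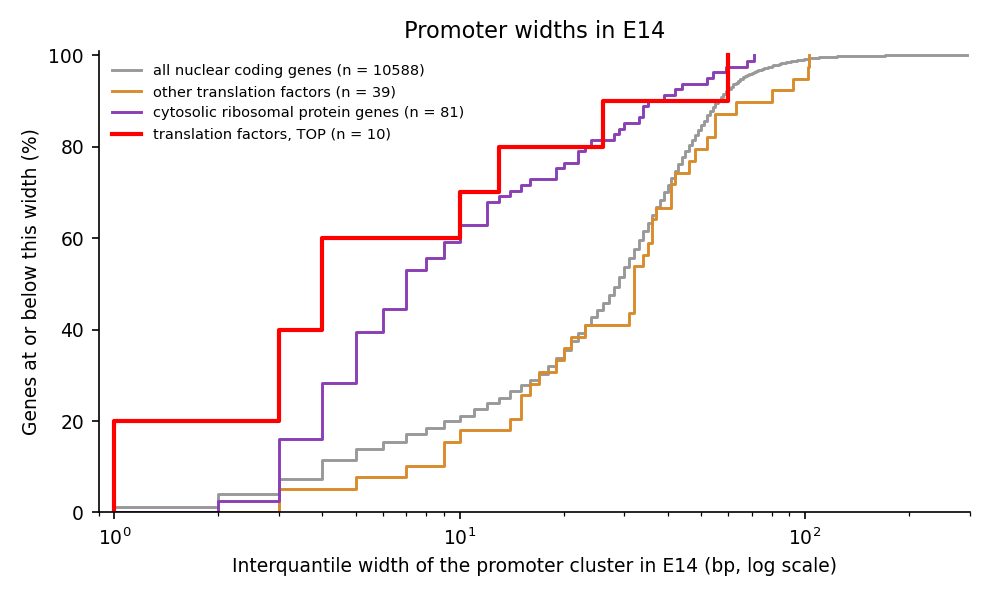
Cumulative share of genes (vertical axis, percent) by the interquantile width of the promoter cluster in E14 (horizontal axis, bp, log scale) for the 10 genes, the ribosomal protein genes, other translation factors and all nuclear coding genes. The 10 genes (red) and the ribosomal protein genes (purple) lie to the left of the other curves, with 7 of 10 and 63.0% at 10 bp or less.

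Among the elongation factors, Eef1a1 and Eef2 were the narrowest. Eef1a1, which brings aminoacyl-tRNA to the ribosome, had an interquantile region of 1 bp in E14, A1 and C7, so that at least the central part of the signal of a 97 bp cluster fell on 1 base. Eef2, which moves the ribosome along the mRNA, was 1 bp wide in E14, 2 bp in A1 and 1 bp in C7. Only 1.29% of coding genes in E14 had a promoter as narrow as these. For Eef1a1 the width depended on the cluster taken. The cluster nearest to any coding start was 7 bp wide in E14 and C7 and 30 bp in A1. By the main rule, the exchange factor subunits were wider than Eef1a1 and Eef2. Eef1d was 26 bp wide in E14, 39 bp in A1 and 31 bp in C7. Eef1b2 was the widest of the 10, with 60 bp in E14 and 53 bp in each clone, but its TOP cluster was 3 bp wide in E14 and 4 bp in each clone. Eef1g, which anchors the other subunits, was 10 bp wide in all 3 lines.

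The initiation factors and the remaining genes were narrow with 1 exception. Eif4a1 was 4 bp wide and Eif4a2 3 bp wide in every line, and Pabpc1 was 4 bp wide in every line. Tpt1, which encodes the growth-associated protein TCTP, was 3 bp wide in every line although its cluster spanned 164 bp, the longest of the 10. Eif3e, a subunit of the initiation factor eIF3, was wider, with 13 bp in E14, 16 bp in A1 and 17 bp in C7. The whole clusters were not short: their median width was 70 bp, against 52 bp for all coding genes. The interquantile region took a median of 7.74% of the cluster in the 10 genes, 8.91% in ribosomal protein genes, 42.9% in other translation factors and 63.9% over all coding genes. Weaker start bases thus stretched well beyond the narrow region.

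**Figure D2:**
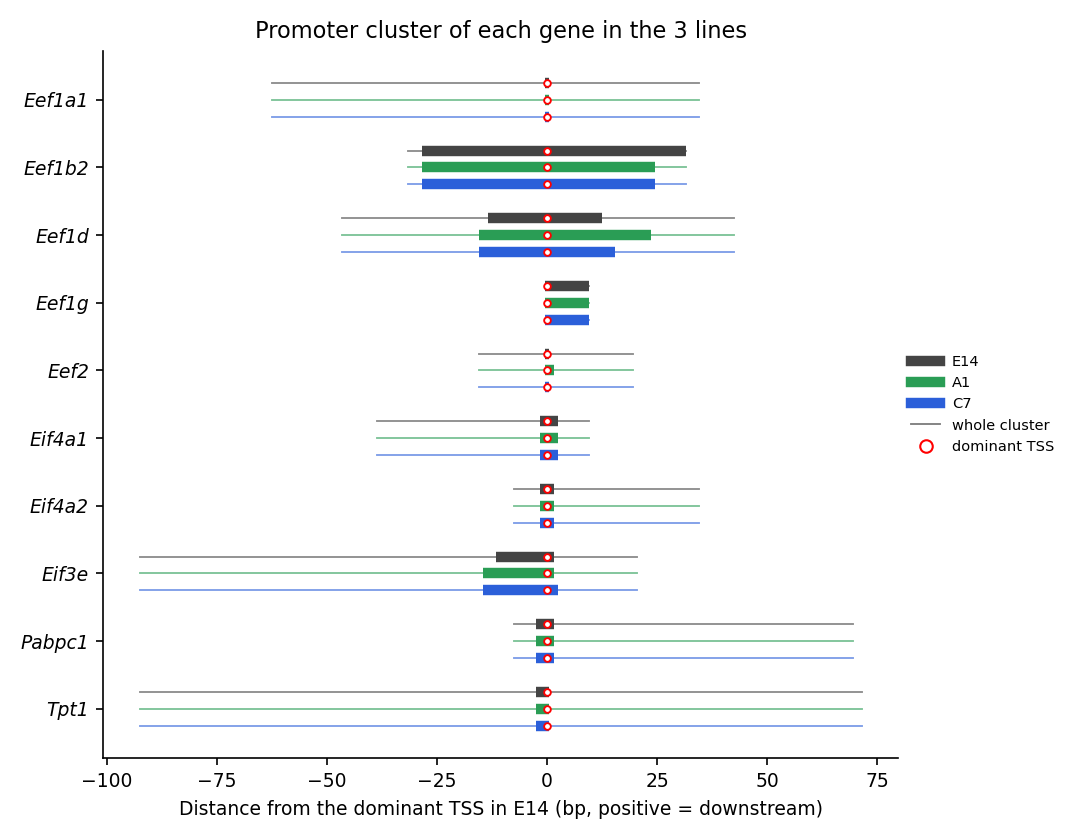
Promoter cluster of each gene (rows) in E14 (grey), A1 (green) and C7 (blue), drawn by distance from the dominant TSS in E14 (horizontal axis, bp, positive is downstream). Thin lines are whole clusters, thick bars interquantile regions and circles dominant TSSs. The circles sit at 0 in every line, and the wide bars are those of Eef1b2, Eef1d and Eif3e.

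The annotated start and the start seen by CAGE were not always the same base. The dominant TSS lay on the principal start in Eif4a1, 1 bp after it in Pabpc1 and 4 bp before it in Eef1g. It lay 11 bp downstream in Eif3e, 15 bp in Eef2, 37 bp in Eef1b2 and 53 bp in Eef1a1. In Eef1d, Tpt1 and Eif4a2 it lay 49, 238 and 314 bp downstream of the principal start, and there it fell on the first base of another annotated transcript. The choice of base mattered for the TOP sequence: read from the principal start, 1 of 10 genes began with a C and 4 pyrimidines, and read 1 base downstream of the dominant TSS, 3 of 9 did (Eef1b2, Eif3e and Pabpc1). Within 2 bp of the dominant TSS, 8 of 9 genes had such a sequence. A search over more bases can only add genes, and these readings were not made over all coding genes.

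Some genes had more than 1 cluster near the start. There were 22 clusters within 500 bp of the principal starts, and 10 of the 18 with covered bases had a TOP start. A share per cluster was not computed over all coding genes. Of the 22 clusters, Eef1b2, Eef1g and Pabpc1 had 4 each. In Pabpc1, clusters 156 bp and 263 bp into the first exon also began with a C and 4 pyrimidines, with interquantile regions of 5 and 2 bp, and a cluster 404 bp into it, 26 bp wide in E14, began with an A. The widest cluster near the Eef1g start had its dominant TSS at chromosome 19 position 8967158 in every line, and its interquantile region was 65 bp wide in E14, 81 bp in A1 and 64 bp in C7. The nearest same-strand cluster outside the window upstream of any of the genes was 8381 bp away, at Eif4a1, so the 500 bp limit left out no nearby cluster.

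The letters TATAA, the core of the TATA box that places the start of transcription a fixed distance downstream, were searched on both strands from 40 to 16 bases before the dominant TSS in E14. Only 7 of the 10 promoter clusters had covered bases there (70.0%), too few for a share. The letters were present on the gene's strand in the promoter clusters of Eef1a1, Eef2, Eif4a1 and Eif4a2, and in the TOP cluster of Eef1b2. They were not found at Eef1d, Tpt1 or the promoter cluster of Eef1b2. They were also absent from the other covered clusters within 500 bp of a principal start. Where the letters were found, the first T lay 28 or 30 bases before the TSS. Those windows are shown with the letters in capitals (RefSeq promoter windows, GRCm38.p6).
Eef1a1, chr9:78481687-78481711, minus strand: gggagaacggtaTATAAgtgcggca
Eef1b2, TOP cluster, chr1:63177089-63177113, plus strand: cctccgtctctaTATAAggagtttt
Eef2, chr10:81176606-81176630, plus strand: ggcgtcgaccTATAAaaggccgggc
Eif4a1, chr11:69672333-69672357, minus strand: tcggacgctcTATAAgttgtcgata
Eif4a2, chr16:23107718-23107742, plus strand: gccgcgagccTATAAaaaacgggcg

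The letters stood in the same window in 3.72% of covered coding genes (339 of 9118), in 17.6% of ribosomal protein genes and in 8.33% of other translation factors. The 5 clusters with the letters were between 1 and 4 bp wide. The covered clusters near the starts without them were between 2 bp (for example at 75845443 in Tpt1) and 65 bp wide (in Eef1g). Eif4a1, 4 bp wide, had the letters but no TOP start, whereas Tpt1, 3 bp wide, had the TOP start without the letters.

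The dominant TSS of these promoters did not differ between E14 and the DKO clones. It moved in 0 of the 10 genes in A1 and in 0 of 10 in C7, whereas a move of 1 bp or more was seen in 18.6% of coding genes in A1 and in 16.7% in C7, and in both clones in 9.07%. With 10 genes and 1 set of clusters per line the absence of a move was not tested. The promoters compared were unlike in width, with a median of 4 bp in the 10 genes and 29 bp over all coding genes in E14. The share of moves among equally narrow promoters was not computed. In the ribosomal protein genes, 6 of 81 moved in A1 and 7 in C7, and 3 moved to the same base in both clones, Rpl29 by 3 bp and Rps16 and Rps3 by 1 bp each, all upstream. In the other translation factors, 11 of 39 moved in A1 and 8 in C7, and in 6 genes both clones moved to the same base. The 5 largest of these moves were those of Eif2s2 by 88 bp, Eif2b4 by 76 bp and Eif3d by 27 bp downstream, Eif1ax by 18 bp upstream and Eif2a by 4 bp downstream. Eif2s2, Eif2b4, Eif3d and Eif1ax had interquantile regions between 55 and 102 bp wide in E14.

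The interquantile region was wider in both clones than in E14 in 2 of the 10 genes (Eef1d and Eif3e), against 20.4% of coding genes, and narrower in both in 1 (Eef1b2), against 5.88%. In 6 genes it had the same width in all 3 lines, against 39.7% of coding genes: Eef1a1, Eef1g, Eif4a1, Eif4a2, Pabpc1 and Tpt1. None of these shares was tested against the background. Of the other translation factors, 17 of 39 (43.6%) were wider in both clones and 0 narrower in both. Of the ribosomal protein genes, 12 of 81 (14.8%) were wider in both and 8 (9.88%) narrower in both.

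Beyond the start, the genes held clusters along their bodies. Of the 109 clusters in E14, 22 lay within 500 bp of a principal start, 36 within 500 bp of another annotated start of the same gene, and 16 within 500 bp of an annotated start of another gene on that strand. A further 31 had their dominant TSS in an exon and 4 in an intron, more than 500 bp from any annotated start. Many of the other annotated starts belong to transcripts that begin inside the gene. The starts of other genes were mostly those of small RNAs encoded within these genes, such as the snoRNA Snord37 in Eef2, and in Eef1d that of the neighbouring gene Naprt. Of these counts, only that of exonic clusters is set beside all coding genes below.

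**Figure D3:**
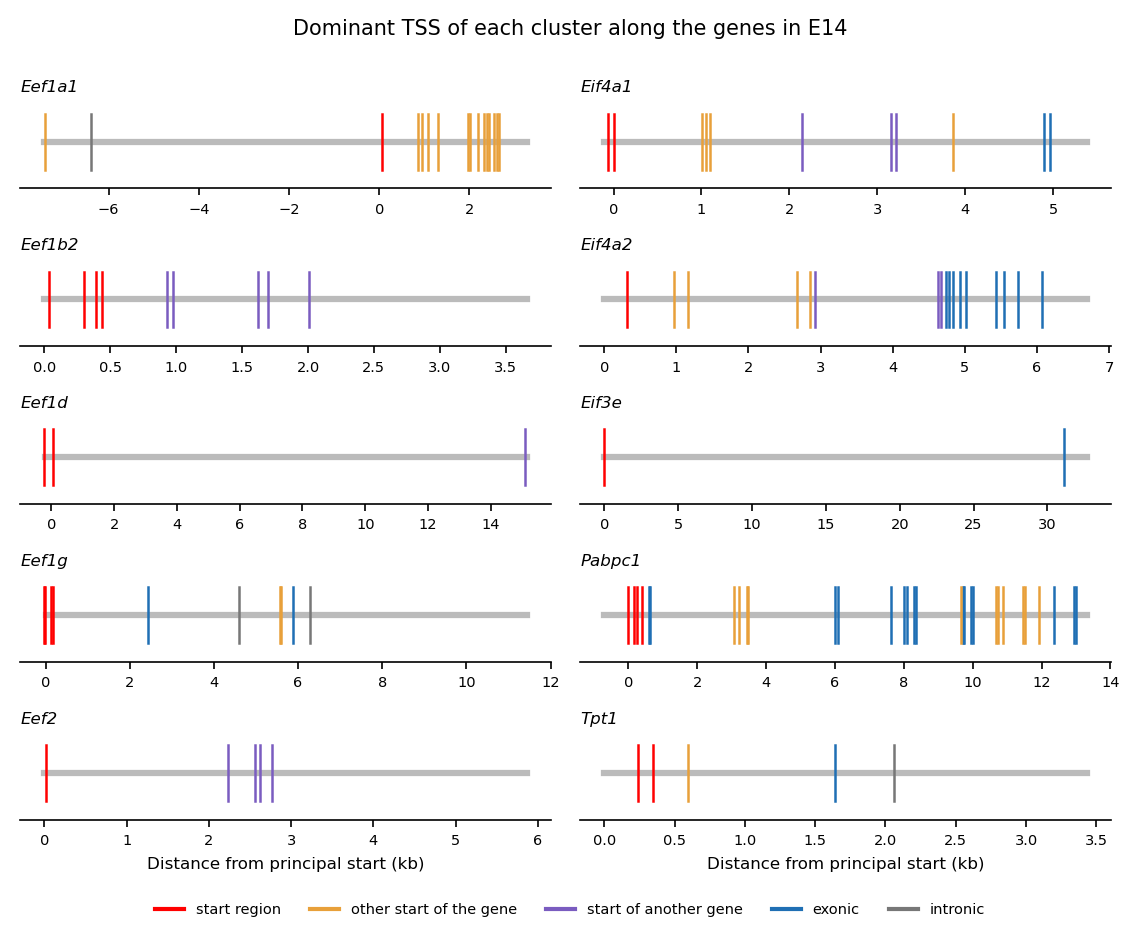
Position of the dominant TSS of each E14 cluster (vertical lines) along the 10 genes, by distance from the principal start (horizontal axes, kb, a separate scale for each gene). Grey bars are the annotated genes, and colours give the place of the cluster. Pabpc1 carries 31 clusters and Eif3e 2.

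Pabpc1 had the most clusters, 31, and a dominant TSS lay in each of the 15 exons of its principal transcript. Eif4a2 followed with 17, Eef1a1 with 16, Eif4a1 with 11, Eef1g with 10 and Eef1b2 with 9. Eef2 and Tpt1 had 5 each, Eef1d 3 and Eif3e 2. In Eef1a1, 6 of 8 exons held a dominant TSS, in Eif4a1 5 of 11, and in Eif3e 2 of 13. Gene length did not order the counts: Eif3e, with 2 clusters, is 32662 bp long and Eef1a1, with 16, is 10703 bp.

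Exonic clusters, in the sense of more than 500 bp from any annotated start, were found in 6 of the 10 genes in E14, against 13.0% of coding genes with a promoter cluster. In 2 of 10 (20.0%) there were at least 3, against 3.9%. The 39 other translation factors had at least 1 in 48.7% and at least 3 in 23.1%. The ribosomal protein genes had at least 1 in 35.8% and at least 3 in 9.88%. Per kb of exon there were 0.725 exonic clusters in the 10 genes, 0.467 in other translation factors, 0.375 in ribosomal protein genes and 0.0676 over all coding genes. These lists were not matched for expression level, which the paper gives as the strongest correlate of unannotated starts inside genes. The count rested on how many annotated starts were allowed for. With protein-coding transcripts only, or with a promoter window of 100 bp, the 31 exonic clusters became 61, and 9 of the 10 genes had at least 1, whereas with a window of 1000 bp 10 clusters in 4 genes were left. The shares over all coding genes under these settings were 13.9%, 21.8% and 11.7%. Of the 81 ribosomal protein genes, 54 (66.7%), 70 (86.4%) and 17 had at least 1, in the same order. Of the 39 other translation factors, 18, 23 and 15 did. With the window of 100 bp the 10 genes thus lay close to the ribosomal protein genes, so the contrast with that list depended on the setting. With protein-coding transcripts only, Pabpc1 had 23 exonic clusters in every line, and Eif4a2 and Eef1a1 had 9 each. Eif4a1 had 6, and Eef1b2, Eef1g and Eef2 4 each, again in every line.

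With all annotated starts and the 500 bp window, the exonic clusters were concentrated in Pabpc1 and Eif4a2. Pabpc1 had 16 in every line, 14 in coding sequence and 2 in the 3′ UTR, which is 2.45 per kb of exon. Only 0.198% of coding genes, 21 in all, had as many in E14. Eif4a2 had 9 in every line, which 0.604% of coding genes reached. Of these 9, 1 lay in coding sequence, 5 in a 3′ UTR and 3 in a noncoding exon, as any annotated transcript gives it. In E14, only those at 23113181 and 23113522 on chromosome 16 lay in an exon of the principal transcript, exon 11. The others lay only in exons of other Eif4a2 transcripts. Eef1g and Eif4a1 had 2 each, in coding sequence and in the 3′ UTR respectively, and Tpt1 1 in coding sequence. Eif3e had 1 in E14 and C7 and 2 in A1. Its additional cluster, 1 bp long at chromosome 15 position 43262627, was the only cluster of the 10 genes in a clone that had none overlapping in E14.

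In the median, the exonic clusters were wider than is usual for their kind. Their median interquantile width was 13 bp in each line, against 3 bp over exonic clusters of all coding genes. The sets overlapped: in E14 the lower quartile was 2 bp in both, and 35.5% against 52.8% were 3 bp wide or less. The order of the medians is the reverse of that at the promoters, where the 10 genes had the narrower regions. The widest, at 78 bp in all 3 lines, lay in exon 14 of 15 of Pabpc1, from 36596565 to 36596655 on chromosome 15. In Pabpc1 the clusters of exons 5 and 6 with dominant TSSs at 36601357 and 36600960 were 58 and 52 bp wide in E14.

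The bases at exonic starts differed from those at the promoters. The sequences of 5 exonic clusters are shown from 10 bases before the dominant TSS in E14 to 14 bases after it, with the 3 bases before the TSS and the TSS itself in capitals (GENCODE M21 transcripts, mm10), because they show the starts after G and those without it.
Eef1g, exon 4, chr19:8969459-8969483, plus strand: agtacctGGGTgttccccaccttgg
Eif4a2, exon 11, chr16:23113171-23113195, plus strand: ggcagagGGGGtcgatttgggagga
Pabpc1, exon 1, chr15:36608359-36608383, minus strand: gtctgcaGGGAcatgatcacccgcc
Pabpc1, exon 6, chr15:36600946-36600970, minus strand: aacagatTTATgttggacgagctca
Pabpc1, exon 7, chr15:36600660-36600684, minus strand: tgaacctTTATgtgaaaaatcttga

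Over the 31 exonic clusters, G stood directly before the TSS in 18 (58.1%), against 75.5% of exonic clusters of all coding genes. GG stood there in 10 in E14 (32.3%), in 16 of 32 in A1 (50.0%) and in 12 of 31 in C7 (38.7%), and over all coding genes in E14 in 66.9% of exonic clusters but 4.81% of promoter clusters. Pabpc1 and Eif4a2 differed in this: G directly before the TSS was found in 8 of 16 clusters of Pabpc1 and in 7 of 9 of Eif4a2. Of the 49 covered clusters near other annotated starts in E14, 32 had G before the TSS (65.3%), 26 had GG (53.1%) and 7 had a pyrimidine followed by a purine (14.3%). That pyrimidine-purine step, the usual one of promoters, was found in 6.45% of the exonic clusters of the 10 genes and in 6.7% of the exonic clusters of all coding genes. At promoter clusters it was found in 83.0% over all coding genes, but in only 1 of the 8 covered here (12.5%), most of which start at a C. What lies behind the G-rich starts was not tested.

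All 109 clusters of E14 had an overlapping cluster in both clones, as had 99.3% of all E14 clusters in each clone. The bounds were the same for 109 in A1 and for 107 in C7, the exceptions being a cluster of Eef1b2 and one of Pabpc1. With 97.3% of all E14 clusters having the same bounds in both clones, overlap alone is a weak comparison of the lines. The dominant TSS within the 109 clusters moved in 31 in A1 (28.4%) and in 23 in C7 (21.1%), and in 12 in both. Over all clusters the shares were 23.8%, 21.1% and 11.2%, so those of the 10 genes lay near the background. None of the 10 promoter clusters was among those that moved. In A1, 20 of the 31 moves were of 3 bp or more.

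**Figure D4:**
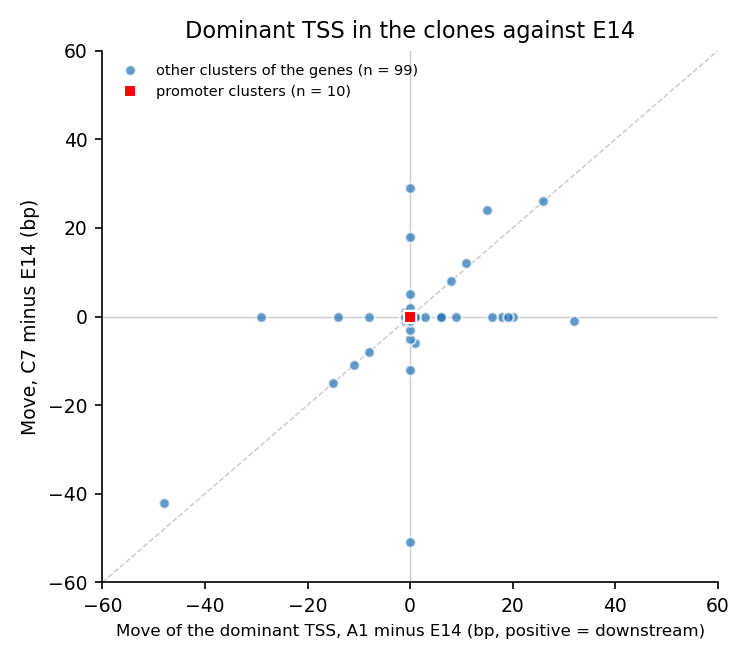
Move of the dominant TSS from E14 to A1 (horizontal axis, bp) and to C7 (vertical axis, bp) for the 109 clusters of the 10 genes, positive values being downstream and the dashed line equal moves. The 10 promoter clusters (red) lie together at 0, and the other 99 (blue) reach from 48 bp upstream in A1 and 51 bp upstream in C7 to 32 bp downstream in A1.

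Of the 12 clusters that moved in both clones, 6 moved to the same base. These were 3 clusters of Eef1a1, whose dominant TSSs at 78479069, 78480415 and 78479299 on chromosome 9 moved by 8 and 26 bp downstream and 1 bp upstream, and 1 of Eef1b2 that moved 8 bp upstream. The other 2 were exonic. In Eif4a2 the dominant TSS went from 23112282 to 23112267 on chromosome 16, 15 bp upstream, in a cluster of 16 bp. In Pabpc1 it went from 36600873 to 36600884 on chromosome 15, 11 bp upstream, in a cluster of 12 bp in exon 6. Both thus changed from one end of a short cluster to the other, while the interquantile width stayed at 16 and 12 bp in every line.

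Other moves differed between the clones. The furthest was in Eif4a2, in a cluster of 52 bp near another annotated start, where the dominant TSS stayed at 23108411 in A1 and lay 51 bp upstream in C7. In Eef1d, the cluster near the Naprt start moved 29 bp upstream in A1 and 0 bp in C7. Its cluster upstream of the principal start moved 0 bp in A1 and 29 bp downstream in C7. In Pabpc1 some moves went the same way by different lengths. In exon 4 the dominant TSS lay at 36602878 in E14, at 36602863 in A1 and at 36602854 in C7, which is 15 and 24 bp downstream. In exon 13, in a cluster within 500 bp of another annotated start of Pabpc1, it lay at 36597045 in E14, 36597093 in A1 and 36597087 in C7, which is 48 and 42 bp upstream. In the widest exonic cluster, in exon 14, it moved 32 bp downstream in A1 but only 1 bp upstream in C7. Among the 31 exonic clusters, 9 moved in A1 (29.0%) and 8 in C7 (25.8%), against 25.1% and 22.8% of the exonic clusters of all coding genes.

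On the opposite strand the genes held 28 clusters in each line. Pabpc1 had 10 of them, Eef2 5, Eef1b2 4, Eef1a1 and Eef1g 3 each, Tpt1 2 and Eif4a1 1, and no such cluster was seen in Eef1d, Eif4a2 or Eif3e. In Eef1b2, 3 lay upstream of the promoter cluster, near an annotated start on that strand. The 10 in Pabpc1 all lay inside the gene. Opposite-strand clusters were not counted over all coding genes, so these numbers have no background beside them.

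The lines carried the marks of mESCs. A promoter cluster was present in every line at 8 of 8 stem cell marker genes, among them Pou5f1, Nanog and Sox2, and at 1 of 10 markers of other cell types, Col1a1. Of the targeted genes, Pwwp2a had a promoter cluster in all 3 lines and Pwwp2b in none of them, so the positions do not check the knockout.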

How the data were processed

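Nuclear RNA of E14 (3 libraries), DKO A1 (2) and DKO C7 (3) was sequenced by CAGE-seq. The authors mapped reads to mm10 with STAR (2.4.2a in the submitters' processing notes, with SAMtools 1.3 and bedtools 2.17.0), kept unique alignments, merged the libraries of each line and called clusters with CAGEr. Reads shared equally with near-identical copies elsewhere would thus be left out. The deposited file holds positions only: cluster bounds, interquantile blocks (0.1 to 0.9) and dominant TSSs, with every score at 0. The minimum signal of a cluster is not given in the sources used here.

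Clusters were assigned with GENCODE M21 in Python 3.11.15 (pandas 2.3.3, NumPy 2.4.6). Categories were promoter (within 500 bp of any annotated start on the strand), exonic, then intronic. Clusters of different lines were matched by an overlap of at least 1 bp. The rules were tested on simulated clusters. The members and lists were chosen with earlier results of these data known. All 10 genes are named, with the genes of the comparison lists whose dominant TSS moved to the same base in both clones (at most 5 per list) and the targeted genes. Alternatives were the gene window, the promoter rule, the promoter window, the transcripts used, the overlap rule, the size of a move and the base tested.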

Additional observations from a re-analysis of the deposited data

How the results depend on the processing

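No paired analysis was possible because the libraries of each line were merged before clusters were called, and for the same reason no library was left out. Of 78 alternative values, 37 were taken as the same and 41 were not. A count had to stay within 1.5 times the main value and a share within its 95% Wilson interval. A median width had to be equal. The number of clusters, 109 in E14, was the same with 100 or 1000 bp before the gene start and 137 with both strands, where Eef2 gained 5 to its 5.

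Exonic clusters numbered 31, 32 and 31 in E14, A1 and C7. With a promoter window of 100 bp they were 61, 63 and 62, with 1000 bp 10, 11 and 10, and with protein-coding transcripts only 61, 62 and 61. Taking the widest interquantile region near a start picked the same promoter cluster in 4 genes in E14 and 5 in each clone, with median widths of 28.5, 35 and 28.5 bp, 3 genes at 10 bp or less and a TOP start in 3 of 9 genes in E14 and 4 of 10 in each clone. Under that rule all coding genes in E14 had a median of 32 bp, 14% at 10 bp or less and a TOP start in 3.17%, so the medians lay close together. The cluster nearest to any coding start was the same promoter cluster in 8 genes in each line, with a median of 4 bp. The median was 70 bp for whole clusters, with 1 gene at 10 bp or less, and 7 bp with interquantile widths of at least 3 bp, in every line. A TOP start was found in 3 genes 1 base downstream of the TSS and in 1 at the principal start. Clusters with the same dominant TSS as in E14 were 71.6% in A1 and 78.9% in C7, against 100% by overlap. Midpoints of the interquantile region moved in 4 promoters in A1 and 3 in C7, where the dominant TSS moved in 0. Moves of at least 3 bp numbered 20 in A1, against 31 of any size. The causes were not tested.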
